A study of Mus musculus with 6 samples.

Results

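A set of 10 regulators of DNA methylation and Polycomb repression, each with known ties to the Foxp3 locus, was followed in regulatory T cells (Treg cells) from mouse tumours. They were listed by name, with earlier results of these data known, and all 10 were found among the 54446 genes of the count tables. The set holds the maintenance methyltransferase Dnmt1 and its partner Uhrf1, the de novo methyltransferase Dnmt3a, the 5-methylcytosine oxidases Tet1, Tet2 and Tet3, the Polycomb repressive complex 2 (PRC2) subunits Ezh2, Eed and Suz12, and the H3K27 demethylase Kdm6b.

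Total RNA was sequenced from live CD45+ CD4+ cells that carried the Foxp3-GFP reporter, sorted out of subcutaneous tumours of the mouse melanoma line B16F10. The 3 control libraries have the genotype Foxp3Cre Ythdf2fl/+, so the controls also carry the Cre recombinase and 1 floxed allele. Their titles nevertheless call them WT Control. The 3 libraries labelled Ythdf2 cKO have the genotype Foxp3Cre Ythdf2fl/fl, and Ythdf2 encodes a reader of N6-methyladenosine in mRNA. Cre is driven from Foxp3, so deletion is restricted to cells that have expressed Foxp3. Control 1, control 2 and cKO 1 came from cage 1, and control 3, cKO 2 and cKO 3 from cage 2. The sources used here give neither the age of the mice nor the number of animals per library. Since no label ties a library to 1 animal, p-values here reflect only how these samples vary, and part of that may be technical.

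Treg cells keep Foxp3 switched on through an intronic enhancer, CNS2, whose CpG sites are unmethylated in stable Treg cells. Dnmt1, guided by Uhrf1, copies methylation to the new strand after replication, Dnmt3a adds it to unmethylated sites, and TET enzymes oxidise it and so lead to its loss. PRC2 places H3K27me3, a repressive histone mark, through its catalytic subunit Ezh2 with Eed and Suz12, and Kdm6b takes the mark off. Loss of Uhrf1, TET enzymes or Ezh2 in Treg cells is known to weaken Foxp3 expression or Treg function. The libraries report transcript levels of these enzymes, not methylation or H3K27me3.

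The libraries held between 5602053 and 13602069 gene counts. Values are given in CPM, counts relative to library size after TMM correction, which guards against a few genes taking a large share of the reads. Control 3 had 42.6% of its gene counts in mitochondrial ribosomal RNA, against 9.97% to 19.2% in the others, and a TMM factor of 0.713 against 1.04 to 1.09. Ythdf2 itself stood at 124, 102 and 93.1 CPM in controls 1 to 3 and at 90.1, 104 and 104 CPM in cKO 1 to 3, with a log2 fold change of -0.10 (standard error 0.16, edgeR adjusted p = 1). Because the targeted transcript was not lower past the threshold, directions below belong to the libraries as labelled. The counts cover every exon, and the labels do not say which exons are floxed. Markers of the sorted cells were present in all 6 libraries, with the 8 T cell markers summing to 1933 to 3449 CPM. Melanoma markers were present as well and divided the cages. The 15 melanoma markers summed to 87.1 to 644 CPM in cage 1 and to 2976 to 6015 CPM in cage 2, with Tyr, Oca2 and Mc1r at 0 in cKO 1 alone.

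Positions are given in mm10. Dnmt1 (ENSMUSG00000004099) lies on chromosome 9 from 20907209 to 20959888, Uhrf1 (ENSMUSG00000001228) on chromosome 17 from 56303321 to 56323486 and Dnmt3a (ENSMUSG00000020661) on chromosome 12 from 3806007 to 3914443. Tet1 (ENSMUSG00000047146) lies on chromosome 10 from 62804570 to 62908996, Tet2 (ENSMUSG00000040943) on chromosome 3 from 133463679 to 133545139 and Tet3 (ENSMUSG00000034832) on chromosome 6 from 83362373 to 83459084. Of the PRC2 genes Ezh2 (ENSMUSG00000029687) lies on chromosome 6 from 47530139 to 47595341, Eed (ENSMUSG00000030619) on chromosome 7 from 89954654 to 89980983 and Suz12 (ENSMUSG00000017548) on chromosome 11 from 79993106 to 80034123. Kdm6b (ENSMUSG00000018476) lies on the same chromosome 11 from 69398508 to 69413675. Names, positions and exon lengths are those of GENCODE M21.

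Promoter windows were looked up because several of these genes are induced in dividing cells, in which E2F factors bind the promoters of replication genes. RefSeq windows (GRCm38.p6, 250 bases before to 50 bases after each start) were found for 9 of the 10 regulators, all but Kdm6b. They were searched on both strands for the E2F-like words TTTGGCGC, TTTCCCGC, TTTCGCGC and TTTGGCGG, with no other motif searched. A match stood in 4 of the 9 genes (44.4%), Dnmt1, Uhrf1, Ezh2 and Suz12. It stood in 488 of 9347 tested genes with a window (5.22%) and in 10 of 24 S phase genes (41.7%). A gene was counted if any of its windows matched, which was 1 of 3 windows for Dnmt1 and 1 of 2 for Uhrf1. Distances below are from the start of the matched window. Stretches of 30 bases around each match are shown because the match distinguishes these 4 promoters from the other 5. Capitals mark the matched word, which in the first Dnmt1 stretch is read on the other strand.
Dnmt1 upstream: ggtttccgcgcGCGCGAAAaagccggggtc
Dnmt1 after the start: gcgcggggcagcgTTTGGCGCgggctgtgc
Uhrf1: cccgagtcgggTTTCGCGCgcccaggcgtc
Ezh2: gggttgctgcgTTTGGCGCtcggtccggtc
Suz12: cgacccctcatTTTCCCGCgaattcagttc
The Dnmt1 stretches lie at chr9:20952824-20952853 and chr9:20952574-20952603 on the minus strand, with the matches beginning 219 bases upstream of the start and 34 bases after it. The Uhrf1 stretch lies at chr17:56304117-56304146 on the plus strand, with its match 185 bases upstream. The Ezh2 match begins 4 bases after the start, at chr6:47595009-47595038 on the minus strand, and the Suz12 match 219 bases upstream, at chr11:79992876-79992905 on the plus strand. The windows of the regulators also differed in CpG pairs. The Tet2 window held 57 CG pairs and the richest Dnmt3a window 47, against 17 in Tet1 and in Eed and a median of 7 over all windows. A match describes letters in the window and not binding.

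Levels were compared between genes only per kilobase of exon. Kdm6b was the most abundant regulator at 58.5 ± 11 CPM per kb (SD, n = 6), followed by Dnmt1 at 37.7 ± 6.24 and Suz12 at 33.3 ± 2.64 CPM per kb. Uhrf1 (20.5 ± 3.89) and Eed (20.4 ± 4.55 CPM per kb) could not be ordered, since Uhrf1 was the higher in 4 of 6 libraries. Ezh2 followed at 15.1 ± 2.11, Tet3 at 12.6 ± 1.59, Tet2 at 9.54 ± 0.780 and Dnmt3a at 7.80 ± 1.25 CPM per kb. Tet1 was at 0.690 ± 0.217 CPM per kb, 11.3-fold under Dnmt3a. Neighbours were in the same order in all 6 libraries from Kdm6b to Uhrf1, for Eed over Ezh2 and for Dnmt3a over Tet1. The other 3 neighbouring pairs kept their order in 5 of 6 libraries. Foxp3 itself stood at 94.4 ± 23.4 CPM per kb. With the length of the longest coding transcript in place of all exons, the ranks were 3 for Eed, 4 for Suz12, 5 for Ezh2 and 6 for Uhrf1, and the other 6 ranks were the same. Several levels moved by more than 1.5 times, with Ezh2 at 36.3, Eed at 37.8, Tet3 at 19.3, Tet2 at 17.5 and Dnmt3a at 13.4 CPM per kb, and Tet1 was then 18.1-fold under Dnmt3a.

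**Figure D1:**
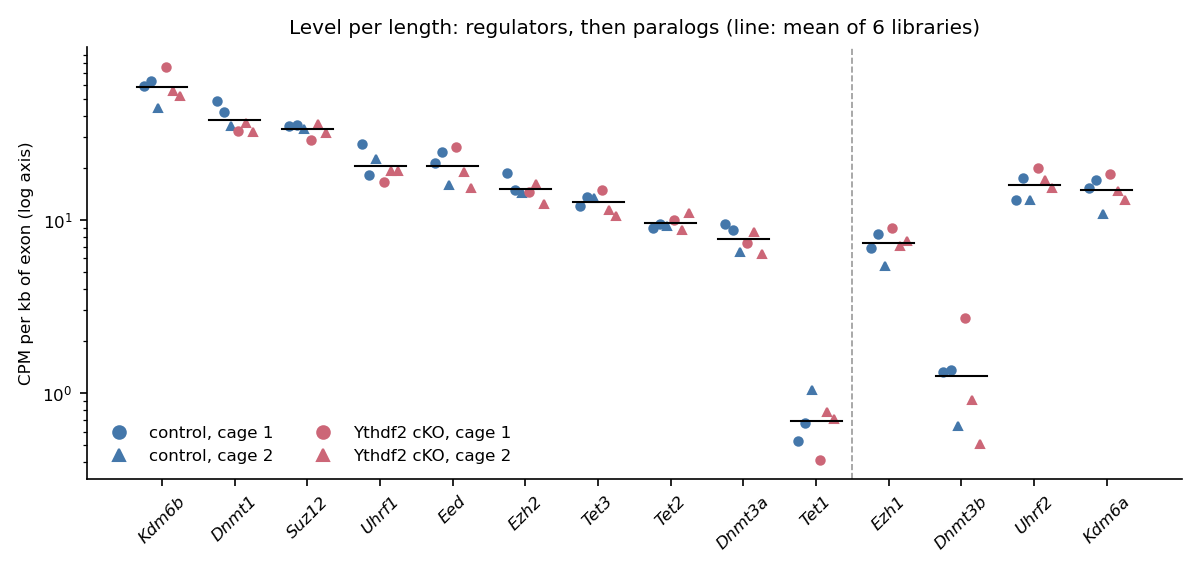
Level of the 10 regulators and of 4 paralogs in CPM per kb of exon on a log axis, 1 point per library (blue control, red Ythdf2 cKO, circles cage 1, triangles cage 2) and a line at the mean of 6. Kdm6b stands highest at 58.5 and Tet1 lowest at 0.690, and the dashed line separates the paralogs.

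Of 4 close relatives, Ezh1, Dnmt3b and Kdm6a were the less abundant copy by their means under both definitions of length. Ezh1, the other PRC2 catalytic subunit, stood at 7.35 ± 1.23 CPM per kb, under Ezh2 in every library. Dnmt3b was at 1.25 ± 0.804 and Kdm6a, the X-linked H3K27 demethylase, at 14.9 ± 2.75 CPM per kb. Uhrf2 was at 15.9 ± 2.74 CPM per kb, under Uhrf1, but with the longest coding transcript it was at 38.7 against 24.4 CPM per kb, so the order of this pair turns with the length used. Within the TET family Tet3 gave a mean of 55.1% of the summed level per kb, Tet2 41.9% and Tet1 3.04%. The Tet1 share ran from 1.64% in cKO 1 to 4.41% in control 3.

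The first comparison asks whether the regulators' transcripts differ between the libraries labelled Ythdf2 cKO and the controls. None did past the threshold. The edgeR quasi-likelihood test called 0 of the 10 at an adjusted p under 0.05 and 0 of 10 at an unadjusted p under 0.05. Over all 13172 tested genes it called 0 (0%), with 213 (1.62%) at an unadjusted p under 0.05. Both DESeq2 (279 genes under 0.05 unadjusted) and limma-voom (239) called 0 genes. The groups overlapped for all 10 regulators, whereas 1004 genes (7.62%) had groups that did not. The fold change was below 0 for 8 regulators and above 0 for 2, with a median of -0.13, beside 50.7% of all genes below 0 and a median of -0.0049. All 10 of the 95% intervals held 0. Leaving out Tet1, they lay between -0.74 and 0.64 on the log2 scale.

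**Figure D2:**
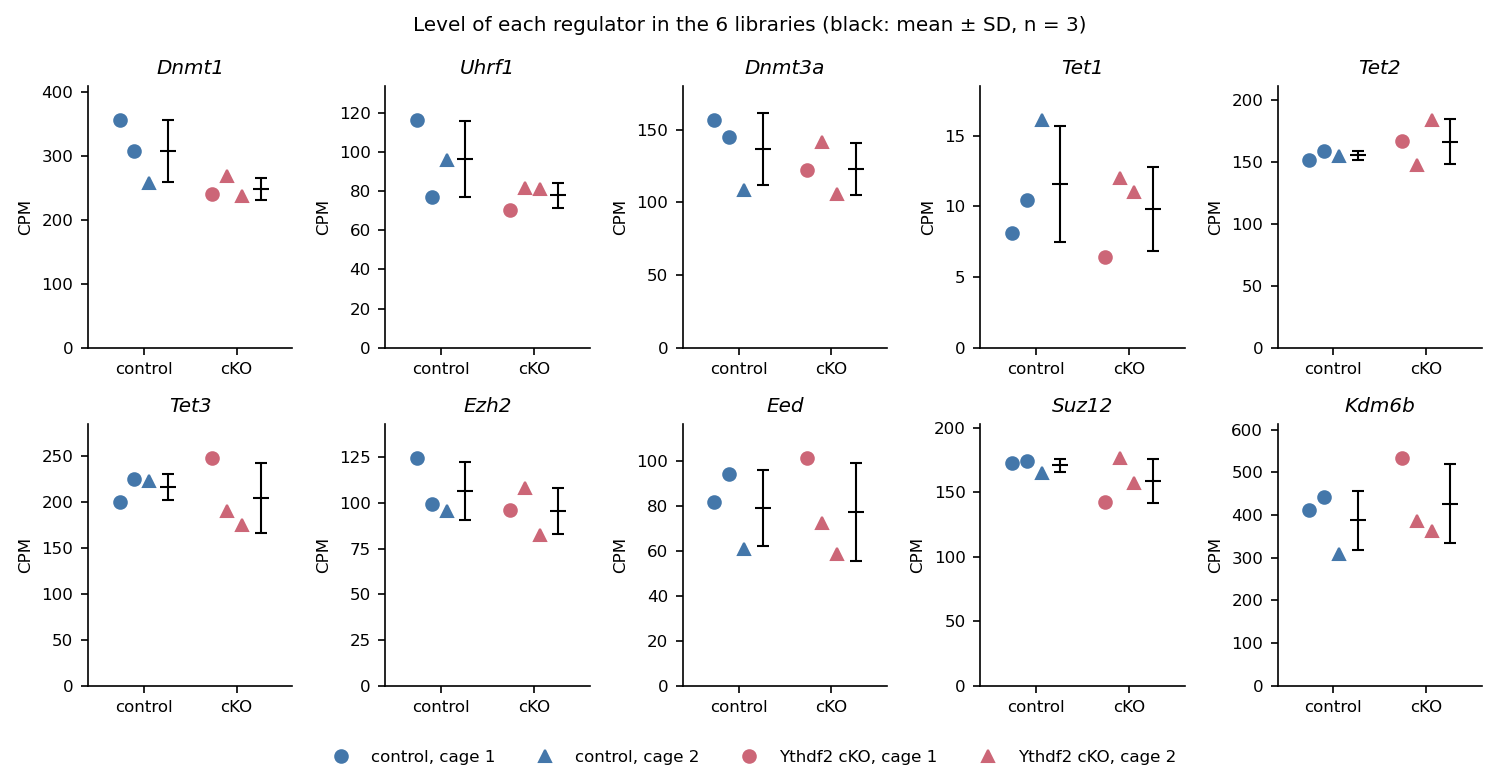
CPM of each regulator in the 6 libraries (blue control, red Ythdf2 cKO, circles cage 1, triangles cage 2), with the mean and SD of each group of 3 in black. The groups overlap in all 10 panels.

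With the group as the only term, the maintenance pair had the lowest fold changes of the set. With cage as a term Tet1 was the lowest at -0.51, beside -0.34 for Uhrf1 and -0.25 for Dnmt1. Dnmt1 stood at 356, 308 and 258 CPM in controls 1 to 3 and at 240, 268 and 237 CPM in cKO 1 to 3 (307 ± 48.9 against 248 ± 17.0, SD, n = 3). Control 1 and control 2 lay above every library labelled cKO, and control 3 fell between cKO 1 and cKO 2. The log2 fold change was -0.31 (standard error 0.16, interval -0.69 to 0.07, edgeR adjusted p = 1). Uhrf1, the protein that recognises hemimethylated CpG sites and brings Dnmt1 there, stood at 117, 77.4 and 96.1 CPM against 70.8, 82.0 and 81.1 CPM (96.7 ± 19.6 against 78.0 ± 6.25, SD, n = 3). Control 2 lay below cKO 2 and cKO 3, so the groups overlapped. Its log2 fold change was -0.31 (standard error 0.18, interval -0.74 to 0.12, edgeR adjusted p = 1). Dnmt3a stood at 157, 145 and 109 CPM in controls 1 to 3 and at 122, 141 and 105 CPM in cKO 1 to 3, with a log2 fold change of -0.15 (interval -0.60 to 0.29, edgeR adjusted p = 1). For this gene the lowest library of each group came from cage 2. The ratio of Dnmt1 to Dnmt3a per kb was 5.13, 4.79 and 5.37 in the controls and 4.43, 4.27 and 5.07 in the others. It was lower by a log2 of -0.15, with overlap (exact two-sided permutation p = 0.2, 0.4 adjusted over 4 ratios, with 0.1 the smallest p that 3 against 3 allows).

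The 3 TET genes had different patterns over the libraries. Tet2 stood at 152, 159 and 155 CPM in controls 1 to 3 and at 167, 148 and 184 CPM in cKO 1 to 3 (156 ± 3.65 against 166 ± 18.2, SD, n = 3), with a log2 fold change of 0.10 (interval -0.23 to 0.42). Tet3 stood at 200, 226 and 223 CPM against 248, 191 and 175 CPM (216 ± 14.1 against 205 ± 38.3, SD, n = 3), with a log2 fold change of -0.08 (interval -0.48 to 0.32). For both genes the controls lay inside the range of the libraries labelled cKO. Tet1 rested on 39 to 154 counts and stood at 8.13, 10.4 and 16.1 CPM against 6.39, 12 and 11 CPM. Its interval was the widest of the set, from -1.17 to 0.71 around -0.23 (edgeR adjusted p = 1 for all 3 TET genes). The ratio of Tet2 to Tet3 per kb lay between 0.668 and 0.766 in 5 libraries and at 1.04 in cKO 3. Between the groups it differed by a log2 of 0.18 (exact permutation p = 0.6, adjusted 0.7).

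Of the PRC2 core, Ezh2 stood at 125, 99.6 and 95.6 CPM in controls 1 to 3 and at 96.1, 108 and 82.7 CPM in cKO 1 to 3 (107 ± 15.7 against 95.7 ± 12.7, SD, n = 3). Eed, the subunit that binds H3K27me3, stood at 81.8, 94.3 and 60.9 CPM against 101, 72.5 and 58.5 CPM. Suz12, the scaffold of the complex, stood at 173, 174 and 165 CPM against 142, 176 and 157 CPM. All 3 overlapped, with log2 fold changes of -0.16 (interval -0.56 to 0.24), -0.03 (interval -0.62 to 0.56) and -0.11 (interval -0.43 to 0.22) in that order (edgeR adjusted p = 1). The ratio of Ezh2 to Ezh1 per kb was 2.71, 1.80 and 2.65 in the controls and 1.61, 2.30 and 1.64 in the libraries labelled cKO. Control 2 lay below cKO 2, and the log2 difference of -0.36 had an exact permutation p of 0.2 (adjusted 0.4). Within cage 1 the difference was -0.45 and within cage 2 also -0.45.

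Kdm6b stood at 412, 442 and 308 CPM in controls 1 to 3 and at 533, 385 and 362 CPM in cKO 1 to 3 (387 ± 70.0 against 426 ± 92.9, SD, n = 3). The highest library, cKO 1, came from cage 1 and the lowest, control 3, from cage 2. Its log2 fold change was 0.14 (interval -0.36 to 0.64, edgeR adjusted p = 1). The ratio of Kdm6b to Kdm6a per kb was nearly constant, from 3.72 to 4.16 over the 6 libraries, with a log2 difference between the groups of 0.03 (exact permutation p = 0.7, adjusted 0.7). Exons of Kdm6b share 4.11% of their bases with the antisense gene Kdm6bos and those of Eed 6.82% with E230029C05Rik. Such overlap was 3.60% for Suz12, 2.61% for Ezh2 0.799% for Dnmt3a and 0.255% for Tet2. No source used here names the strand setting of the counting, so reads in these stretches cannot be assigned.

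**Figure D3:**
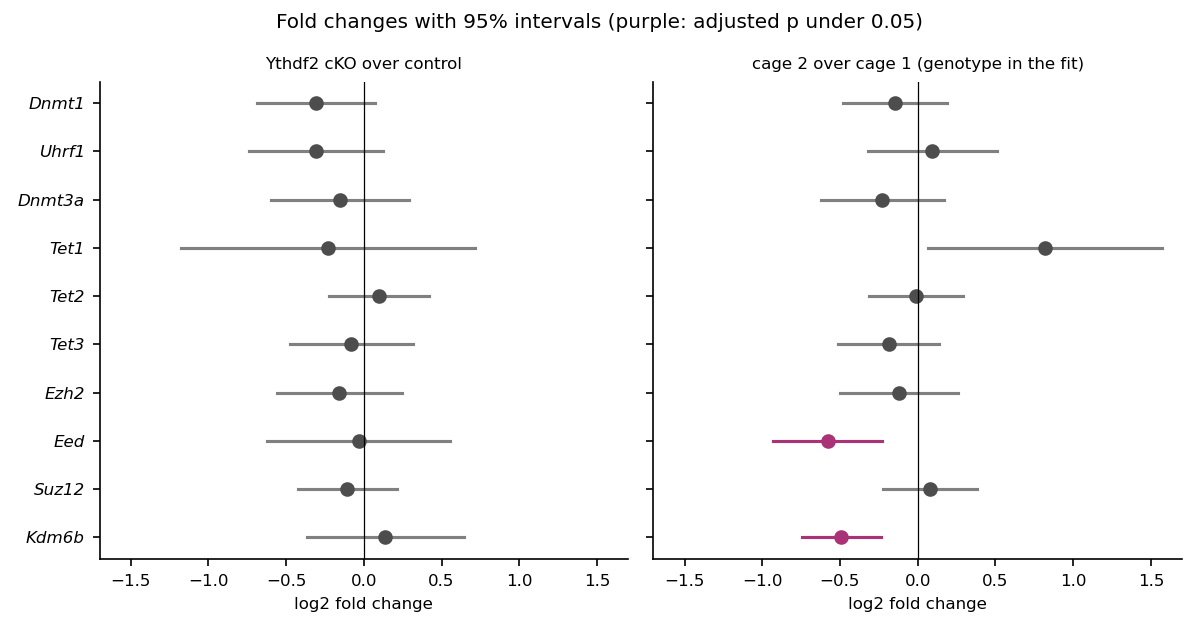
Log2 fold change (point) and 95% interval (line) of each regulator for Ythdf2 cKO over control on the left and for cage 2 over cage 1, with genotype in the fit, on the right. On the left all 10 intervals hold 0, and on the right Eed and Kdm6b, in purple, passed an adjusted p under 0.05.

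Because the genotypes are unevenly divided over the cages, differences were also taken within each cage, where 1 genotype has only 1 library, and are given there as values. Kdm6b lay above each control in both cages, by a log2 of 0.32 in cage 1 and 0.28 in cage 2. This pattern was shared by 14.5% of all tested genes. With cage as a term in the edgeR fit, its fold change was 0.30 (standard error 0.11, edgeR adjusted p = 0.454), with the unadjusted p under 0.05. That fit called 0 genes (0%) and gave an unadjusted p under 0.05 for 1345 (10.2%). Uhrf1 (-0.42 and -0.24) and Tet1 (-0.51 and -0.48) lay below each control of their cage in both cages, as did 18.5% of all genes. For Dnmt1 the difference was -0.46 in cage 1 and -0.04 in cage 2. Tet3 went opposite ways in all libraries, as 23.7% of genes did, with cKO 1 above both controls of cage 1 by 0.22 and both libraries labelled cKO below the control of cage 2 by -0.29. The test of that difference between cages gave -0.50 for Tet3 (standard error 0.24, edgeR adjusted p = 0.388). It called 6 of 13172 genes (0.0456%) and none of the 10 regulators, 0 of which reached an unadjusted p under 0.05, as 14.3% of genes did.

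The second comparison was cage 2 against cage 1 with genotype in the fit. Kdm6b and Eed were lower in cage 2, and 2 of 10 regulators were therefore called, both lower. The edgeR test called 1516 genes (11.5%), of which 1031 were higher (7.83%) and 485 lower (3.68%). The share of higher genes among those called, 68.0% here, was 46.9% when libraries were scaled by total counts alone. Libraries of the 2 cages did not overlap for 3 of the 10 regulators, Kdm6b, Eed and Tet1, a share near the 27.3% of all genes. The regulators' median was -0.13, beside 0.01 over all genes.

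Kdm6b stood at 412, 442 and 533 CPM in cage 1 (462 ± 63.2, SD, n = 3) and at 308, 385 and 362 CPM in cage 2 (352 ± 39.4, SD, n = 3). Its log2 fold change was -0.49 (standard error 0.11, interval -0.75 to -0.24, edgeR adjusted p = 0.025). Every library of cage 1 lay above every library of cage 2. Eed stood at 81.8, 94.3 and 101 CPM in cage 1 (92.4 ± 9.84) and at 60.9, 72.5 and 58.5 CPM in cage 2 (64.0 ± 7.45, SD, n = 3), with a fold change of -0.58 (interval -0.93 to -0.23, edgeR adjusted p = 0.043). The order was again complete. Tet1 went the other way, at 8.13, 10.4 and 6.39 CPM in cage 1 (8.31 ± 2.02) and 16.1, 12 and 11 CPM in cage 2 (13.0 ± 2.70, SD, n = 3). Its fold change of 0.82 (interval 0.07 to 1.57) did not pass (edgeR adjusted p = 0.155), with an unadjusted p under 0.05 that 26.5% of genes shared. The other 7 regulators had fold changes from -0.23 for Dnmt3a to 0.10 for Uhrf1, with adjusted p-values from 0.451 to 0.974 in the same edgeR fit.

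The calls for Kdm6b and Eed were mostly lost with 1 library fewer, though the fold changes moved little. Without 1 library at a time Kdm6b stayed between -0.52 and -0.47, yet kept an adjusted p under 0.05 in 1 of 6 edgeR fits, the one without control 1 (range 0.031 to 0.144). Eed stayed between -0.63 and -0.51 and kept it in 0 of 6 (range 0.052 to 0.229). With cage as the only term Kdm6b was at -0.39 (edgeR adjusted p = 0.16) and Eed at -0.53 (adjusted p = 0.076). With the mean log2 CPM of the melanoma markers as a covariate, 1 gene in all was called. Kdm6b was then at -0.40 (edgeR adjusted p = 0.87) and Eed at -0.29 (adjusted p = 0.93). These markers divided the cages themselves, so that fit could hardly separate marker content from cage.

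Markers of the cells in the sample moved with the cages beside these 2 genes. All 8 T cell markers had a cage fold change below 0, with 6 called lower in cage 2 (median -0.65). All 6 Treg markers were below 0 as well, with 3 called lower (median -0.71). All 15 melanoma markers were above 0, with 13 called higher (median 4.29). Over all tested genes 3.68% were called lower and 7.83% higher. The T cell sums ran from 3198 to 3449 CPM in cage 1 and from 1933 to 2590 CPM in cage 2. Of macrophage and monocyte markers, all 12 tested were above 0 and 7 were called higher. They summed to 9.34 to 105 CPM in cage 1 and to 156 to 575 CPM in cage 2. In sorted bulk samples fewer cells of a type and less RNA per cell cannot be told apart. Foxp3 fell too, from 517 ± 81.7 to 347 ± 19.6 CPM (SD, n = 3), a log2 fold change of -0.65 (edgeR adjusted p = 0.0091).

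Set against the T cell markers, the separation of Kdm6b and Eed was not seen. Per 1000 counts of the 8 T cell markers, Kdm6b gave 129, 128 and 155 counts in cage 1 and 159, 149 and 161 in cage 2 (137 ± 15.5 against 156 ± 6.71, SD, n = 3). The cages overlapped, with cKO 1 above cKO 2. Eed gave 25.6, 27.3 and 29.5 against 31.5, 28.0 and 26.1 (27.5 ± 1.95 against 28.5 ± 2.76, SD, n = 3), also with overlap. On this scale 4 regulators, Tet1, Tet2, Tet3 and Suz12, had every library of cage 2 above every library of cage 1, as 45.7% of all genes did. Tet1 gave 2.54, 3.02 and 1.86 in cage 1 and 8.32, 4.62 and 4.90 in cage 2. An edgeR fit scaled on those markers, an alternative chosen after the data were seen, moved the median of all genes to 0.66 and called 4610 genes higher (35%) and 12 lower (0.0911%). In it Kdm6b was at 0.15 (adjusted p = 0.40) and Eed at 0.06 (adjusted p = 0.79), which is -0.51 and -0.60 relative to that median. Tet1 was at 1.47 (adjusted p = 0.010), 0.81 above the median of all genes. Among the 6 regulators called higher on this scale were also Suz12 at 0.72, Uhrf1 at 0.74 and Tet2 at 0.64, each within 0.1 of the median of all genes. The contribution of the melanoma and T cell content to the cage differences was not tested.

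**Figure D4:**
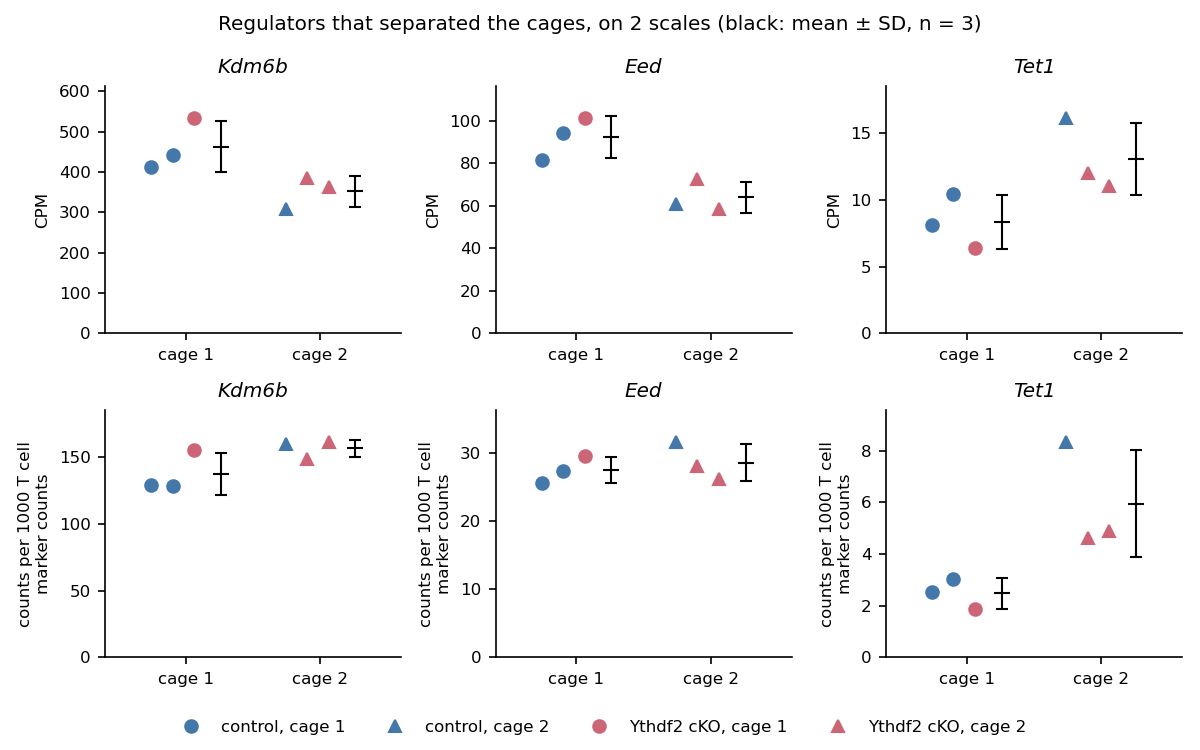
Kdm6b, Eed and Tet1 by cage in CPM (top) and in counts per 1000 T cell marker counts (bottom), 1 point per library (blue control, red Ythdf2 cKO), with the mean and SD of 3 in black. In CPM the cages do not overlap for any of the 3, while per T cell marker count Kdm6b and Eed overlap and Tet1 does not, with means of 2.47 and 5.95.

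The regulators differed in how much they varied. Tet2 and Suz12 were the steadiest, with SDs of log2 CPM over the 6 libraries of 0.11 and 0.12, at percentiles 10.6 and 12 among 500 genes of like level. Eed varied more than most genes of its level (SD 0.32, percentile 73.6). Tet1 had the largest SD, 0.45, at percentile 44.6 among equally low genes. Dnmt1, Dnmt3a and Ezh2 had the most similar profiles of any regulators, as the root mean square difference of centred log2 CPM was 0.10 for Dnmt3a and Ezh2, 0.11 for Dnmt1 and Ezh2 and 0.12 for Dnmt1 and Dnmt3a. Eed and Kdm6b came next at 0.12. Tet1 and Eed were the farthest apart at 0.67. Control 1 was the highest library for Dnmt1, Uhrf1, Dnmt3a and Ezh2, and also for the median of 30 S phase genes, at 0.34 above their mean on the log2 scale. In cKO 1 the median of 28 G2/M genes was the lowest, at -1.11, and Uhrf1, Suz12 and Tet1 were at their lowest too. Tet3 (0.25), Eed (0.40) and Kdm6b (0.41) were at their highest in that library. Dnmt1, Dnmt3a and Ezh2 were at their lowest in cKO 3.

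**Figure D5:**
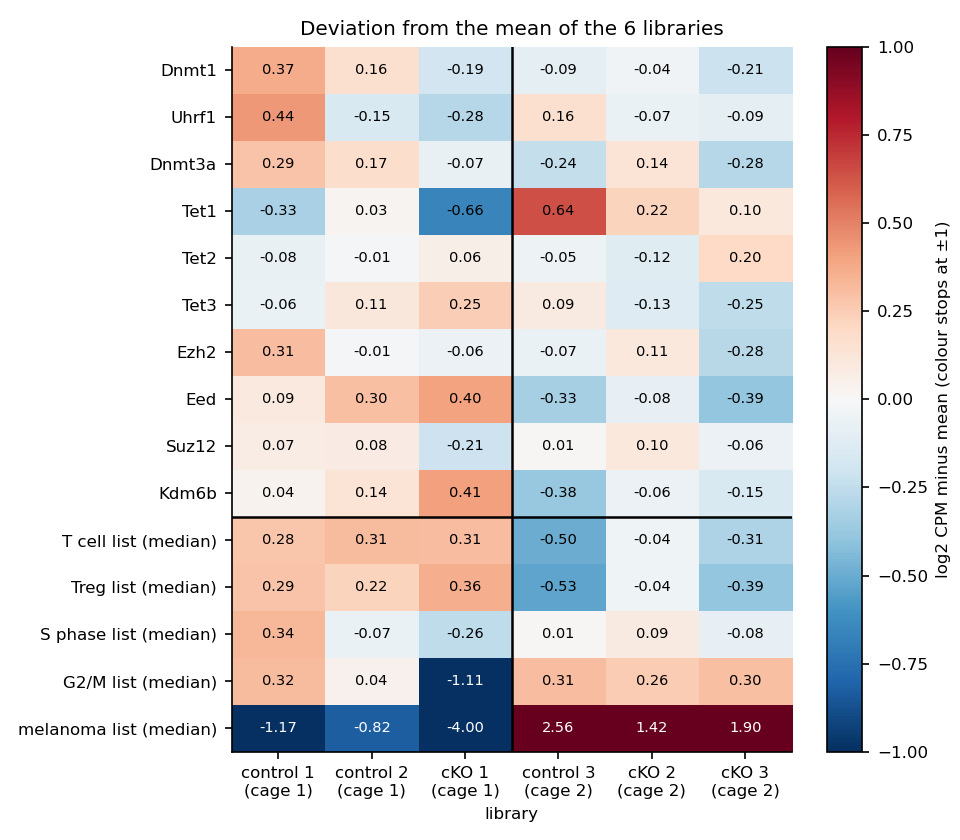
Log2 CPM of each regulator minus its mean over the 6 libraries, with library medians of 5 marker lists below the line and cage 1 left of the vertical line. Eed and Kdm6b are above their mean in all of cage 1 and below it in all of cage 2, as are the T cell and Treg lists, and Tet1 runs from -0.66 in cKO 1 to 0.64 in control 3.

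Across 7909 genes with a mean of at least 10 CPM, the profiles nearest to each regulator over the 6 libraries were found by the same difference. Nearest to Kdm6b were Fam49b (0.018), Nlrc3 (0.026) and Pnrc1 (0.037), and near to Eed were Cd47 (0.038) and Cdk17 (0.051). Rpl14 (0.031), H2afz (0.044) and Eif2s3x (0.045) lay nearest to Dnmt1, and Parp1 (0.054), Hnrnpa1 (0.059) and Nup160 (0.059) to Uhrf1. For Ezh2 these were Psma4, Prelid3b and Rps21, and for Suz12 Ice1, Wrnip1 and Tmsb10. Srrt, Hprt and Pqbp1 were nearest to Dnmt3a, Chd6, Osbpl9 and Stag1 to Tet2, and Fbxo28, Arfgap1 and Heatr5b to Tet3. The nearest to Tet1, Alg10b (0.084), was farther off than the nearest gene of any other regulator. These profiles share the same 6 libraries and their differences in melanoma and T cell content.

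Other genes of the same pathways were described from lists without a test of the list. By genotype 0 genes were called in any of them with edgeR. Of 19 other DNA methylation genes 11 were above 0 (median 0.05), of 10 other PRC2 genes 6 (median 0.04), of 23 PRC1 genes 16 (median 0.14) and of 18 genes of H3K27 demethylation and trithorax complexes 11 (median 0.04). Uhrf2 was at 0.26, Ezh1 at 0.19 and Dnmt3b at 0.29, none past an unadjusted p under 0.05. Of the PRC2 partners, the histone chaperones Rbbp4 and Rbbp7 were at -0.25 and -0.29. S phase and G2/M genes were mostly below 0, with 23 of 30 (median -0.19) and 22 of 28 (median -0.23). From the mean of the 6 libraries, the S phase median was 0.34 in control 1 and -0.26 in cKO 1, both of cage 1. In control 2, control 3, cKO 2 and cKO 3 it was -0.07, 0.01, 0.09 and -0.08. The G2/M median was low in cKO 1 alone, at -1.11 from the mean of the 6 libraries. It was 0.26 and 0.30 in cKO 2 and cKO 3, and 0.32, 0.04 and 0.31 in controls 1 to 3. Mki67 was at -0.39, but within the cages at -0.93 in cage 1 and 0.13 in cage 2. The replication clamp Pcna was at -0.18, with -0.16 and -0.19 within the cages. Dnmt1 and Uhrf1 were at -0.31. Of the 30 factors that act on the Foxp3 locus 17 were above 0 (median 0.03), and Foxp3 was at 0.06 (edgeR adjusted p = 1).

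Genes known as outputs of these enzymes were also looked up. Of 24 germline genes that DNA methylation silences, 2 passed the filter on low counts, Piwil2 and Hsf2bp. Their control means were 4.21 and 0.658 CPM, beside 3.99 and 3.16 CPM in the libraries labelled cKO. At so low a control level Hsf2bp could not pass the filter without libraries labelled cKO. By genotype 0 of these 2 had an unadjusted edgeR p under 0.05. The other 22 did not pass the filter. Of 13 T cell genes under Polycomb control that were tested, 8 were above 0 by genotype (median 0.17). Il5, a type 2 cytokine, had 89, 89 and 20 counts in the controls and 0, 3 and 8 in the libraries labelled cKO, so it passed the filter on low counts through the controls alone (edgeR adjusted p = 1). Of 9 genes with elements demethylated in Treg cells 5 were above 0 (median 0.01).

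By cage, 5 of the 30 Foxp3 locus factors were called, all lower in cage 2 (list median -0.41), and the other 25 did not pass. Over all tested genes 3.68% were called lower. Among the 5 were Foxp3 itself, Elf1 at -0.61, Runx1 at -0.51 and its partner Cbfb at -0.52. Of the 9 genes with elements demethylated in Treg cells 6 were called lower (list median -0.65), among them Foxp3 again, Ikzf4 at -1.01, Tnfrsf18 at -0.78 and Ikzf2 at -0.61. In the chromatin lists Kdm6a (-0.50), the H3K4 methyltransferase Kmt2c (-0.48) and Kmt2e (-0.50) fell, as did the PRC1 genes Bcor (-0.74), Pcgf5 (-0.88) and Cbx7 (-0.61), while L3mbtl2 rose (1.06). Of the other PRC2 genes 0 of 10 were called, with a median of -0.29 and 2 at an unadjusted p under 0.05. Gadd45b, a factor linked to active demethylation, fell by 0.94 on the log2 scale. Cxxc5 was at 4.14, but it had 7, 5 and 0 counts in control 1, control 2 and cKO 1 of cage 1. In control 3, cKO 2 and cKO 3 of cage 2 it had 25, 58 and 63. It thus passed the filter on low counts through cage 2 alone. Of the 17 genes that supply or remove 2-oxoglutarate, the cosubstrate of TET enzymes and Kdm6b, 13 were above 0. Of these 3 were called higher, Idh2 (2.38), Sdhb (0.71) and Sdhd (1.03), and of the 17 Glud1 was called lower (-0.48). Among 10 imprinted genes tested, 8 were above 0 and 3 were called higher, Plagl1 (2.62), Peg10 (5.14) and Sgce (4.44), beside 7.83% of all tested genes. All these calls had an edgeR adjusted p under 0.05 and stood beside the same differences in melanoma and T cell markers, whose part was not tested.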

How the data were processed

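RNA of 6 libraries was measured, and the authors deposited unnormalized read counts per gene in 1 table per library. The submitters' processing notes name Trimmomatic 0.39 for trimming, HISAT2 2.1.0 for alignment, HTSeq for counting, DESeq2 and the mm10 build. No source used here gives the annotation release or the strand setting. Identifiers of 54409 of 54446 genes matched GENCODE M21. Reads in no gene (24.6% to 35.8%) stayed out of library sizes and tests.

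The test was the quasi-likelihood test of edgeR 4.0.16 (R 4.3.3) with TMM factors, on the 13172 genes that filterByExpr kept at a minimum count of 10 and a total of 15. P-values had Benjamini-Hochberg adjustment over these genes and a threshold of 0.05. The genotype fit had the group as its only term, the cage fit had cage and genotype, and a further fit their interaction. Log2 CPM used a prior count of 2. Fold changes are log2 of Ythdf2 cKO over control or of cage 2 over cage 1, and overlap was judged on CPM. Ratios of counts per kb were compared by exact two-sided permutation. Each pair of libraries differed by more than sampling noise (lowest chi-square over its degrees of freedom 17.4). The scripts were tested on simulated data. The lowest count of a regulator was 39 for Tet1 and 386 for the others, and reads are not independent molecules.

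The 10 regulators and the gene lists were chosen with earlier results of these data known. Named genes were the 10 regulators, Ythdf2, Foxp3, Mki67, Pcna and 4 paralogs, and from each list up to 4 genes with the smallest p by genotype and by cage, of which a selection is given. A gene that the rule names is left out here. Replicate numbers are shared between the groups, but deviations of same-numbered libraries correlated at 0.41, -0.24 and 0.55, so they were not treated as pairs. Alternatives were DESeq2 1.42.0, limma-voom (limma 3.58.1), other scalings and filters, cage or melanoma markers in the fit, the replicate number as a block, and each library left out. Scaling on T cell markers, the RLE scaling and stricter filter of the cage fit, the libraries left out of the interaction and the longest coding transcript were added after seeing the data.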

Additional observations from a re-analysis of the deposited data

Results flagged for a closer look

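The difference between libraries labelled Ythdf2 cKO and controls went opposite ways in the 2 cages for Tet3. The log2 difference was 0.22 in cage 1, where cKO 1 lay above both controls, and -0.29 in cage 2, where cKO 2 and cKO 3 lay below control 3. The effect in cage 2 minus that in cage 1 was -0.50 (edgeR adjusted p = 0.388), so it did not pass the test of the difference. Control 3 and cKO 1 could not be left out, as each is the only library of its genotype in its cage. Without control 1, control 2, cKO 2 or cKO 3 the Tet3 effect stayed between -0.58 and -0.41. With libraries scaled by total counts alone it was 0.037, but that scaling moved the median of all genes from 0.17 to 0.71, and relative to the median Tet3 was at -0.68 in both fits.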

How the results depend on the processing

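By genotype 0 genes were called under all alternatives but 2: 26 higher and 7 lower with no filter on low counts, and 427 higher and 33 lower when control 3 and cKO 1 were both left out, which leaves genotype and cage identical. No regulator was called by genotype in any of 19 alternatives, and 5 of 10 kept their direction in all. Scaling by total counts alone moved the median of all genes by genotype to 0.14 and turned Tet3 (0.073), Eed (0.076) and Suz12 (0.029). Cage as a term turned Eed (0.15), and leaving out both libraries turned Tet1 (0.32) and Kdm6b (-0.18). Without 1 library Dnmt1 ran from -0.39 to -0.19 and Uhrf1 from -0.45 to -0.16, both weakest without control 1. Tet1 ran from -0.43 to 0.11, Tet3 from -0.25 to 0.014, Eed from -0.28 to 0.13 and Kdm6b from -0.059 to 0.24. With the replicate block, Dnmt1 was at -0.30 and Kdm6b at 0.13, and 0 genes were called. Control 2 correlated better with cKO 1 (0.46) than with its own number.

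By cage, genes called higher and lower (1031 and 485) became 1 and 0 with the melanoma covariate, 1550 and 799 with DESeq2, 646 and 732 with total counts (median of all genes -0.32), and 4610 and 12 with T cell marker scaling. Those called lower became 146 with cage alone and 873 with no filter. Without 1 library they ran from 595 to 919 higher and from 65 to 376 lower. Direction turned with cage alone for Uhrf1 (-0.034) and Tet2 (0.025), with the melanoma covariate for Uhrf1 (-0.012), Tet3 (0.78) and Suz12 (-0.40), with total counts for Uhrf1 (-0.24) and Suz12 (-0.26), and for Tet2 with DESeq2 (0.011), RLE scaling (0.011) and mean CPM of at least 5 (0.027). T cell scaling turned Dnmt1 (0.50), Dnmt3a (0.41), Tet2 (0.64), Tet3 (0.46), Ezh2 (0.52), Eed (0.062) and Kdm6b (0.15), but it moved the median of all genes to 0.66. Relative to that median Eed was at -0.60 and Kdm6b at -0.51, and no other alternative turned these 2. Without 1 library Dnmt1 ran from -0.37 to 0.089, Uhrf1 from -0.021 to 0.25, Dnmt3a from -0.48 to 0.032, Tet2 from -0.079 to 0.071, Tet3 from -0.42 to 0.056, Ezh2 from -0.24 to 0.0060 and Suz12 from -0.079 to 0.25.

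For the difference between cages, 4 genes higher and 2 lower became 0 and 4 with limma-voom and 28 and 2 with total counts, and 0 to 10 higher and 2 to 6 lower without 1 library. Total counts (median of all genes 0.71, against 0.17) turned Tet2 (0.53), Tet3 (0.037), Eed (0.44) and Kdm6b (0.50). Without 1 library Uhrf1 ran from -0.10 to 0.50, Tet1 from -0.13 to 0.23, Tet2 from -0.17 to 0.16, Eed from -0.24 to 0.059 and Kdm6b from -0.085 to 0.016. The 4 ratios kept their direction without any 1 library. The cause of these changes was not tested. Counts were lowest for Tet1, at 39 to 154 per library.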
